A study of Mus musculus with 8 samples.

Results

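Integrins and the proteins of focal adhesions join cells to the extracellular matrix, and 37 genes that encode them were followed here among the 14608 genes measured in mouse embryonic outflow tract (OFT). The members are defined by gene family and function: 11 integrin alpha subunits, 5 integrin beta subunits, 9 integrin activators and actin linkers, 6 proteins of the ILK-PINCH-parvin complex and 6 adaptors and signalling proteins. All 37 had a row in the table. RNA-seq was run on E11.5 OFT from control embryos and from Mib1V943F/+ Gata6STOP/+ embryos, which are heterozygous at both loci, with 4 libraries per genotype. By the labels each library is a pool of tissue from 3 individuals. *Gata6* encodes a zinc finger transcription factor of the developing heart and *Mib1* encodes a ubiquitin ligase that activates Notch ligands. Libraries with either mutation alone are not analysed here, so the contributions of the 2 alleles cannot be told apart.

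An integrin is a pair of one alpha and one beta chain that crosses the membrane. The alpha chain largely sets the ligand, such as fibronectin, laminin or collagen. Talin and kindlin bind the beta tail and switch the receptor to its active state, and vinculin, alpha-actinin, tensin and the ILK-PINCH-parvin complex couple it to actin. Paxillin, focal adhesion kinase and p130Cas pass the signal on. In striated muscle the same proteins build costameres, which anchor the outer myofibrils to the membrane. In the OFT of this stage endocardial cells leave their layer, enter a matrix-filled cushion and form the valve mesenchyme, while a sleeve of myocardium surrounds them.

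None of the 37 genes passed an adjusted p of 0.05 (limma on log2 of CPM, read counts scaled to a common library size, plus 0.5, with Benjamini-Hochberg adjustment over all 14608 genes). The same held for the whole table, where 0% of genes passed and the smallest adjusted p was 0.124. At an unadjusted p under 0.05, 2 members were lower in the mutant and 0 were higher, against 6.62% and 5.45% of all genes. These 2 were *Tln2*, encoding talin-2, and *Itga2b*, encoding the alpha chain of the platelet fibrinogen receptor. *Tln2* was the 1 member whose 4 mutant values all lay below its 4 control values, and 0 members lay wholly above. Of all genes 3.9% lay wholly below and 3.2% wholly above. The median log2 fold change was -0.05 over the members and 0.001 over all genes, and the median absolute log2 fold change was 0.107 in both. In all, 22 members had a lower and 15 a higher mean log2 value in the mutant, against 7249 lower and 7359 higher of all genes.

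The libraries held 10669420 to 30469165 reads on the listed genes, as worked out from the smallest steps between CPM values, and control replicate 2 was the shallowest. The *Gata6* RNA level was 262 ± 18.5 CPM in the controls and 249 ± 36.1 CPM in the mutants (SD, n = 4 each, limma adjusted p = 0.752). *Mib1* gave 122 ± 15.6 and 128 ± 6.62 CPM (adjusted p = 0.746). RNA levels of the targeted genes therefore did not separate the groups, and each direction given here rests on the labels. The *Mib1* allele is a missense mutation, which need not change RNA level, so the *Mib1* values are no check of the labels. Mutant replicate 2 stood apart from its group, with the lowest value of 19 members and the highest of 12, and it received the lowest library weight, 0.308, in a fit that estimates one weight per library. The next lowest weight, 0.518, was that of control replicate 2. Nothing in the labels says that the pools came from separate litters, so p-values measure the spread between these pools only. Defining markers of myocardium, endocardium, smooth muscle and cushion mesenchyme were present. Of 7 listed epithelial markers *Epcam*, *Cdh1*, *Foxa2* and *Cldn6* had no row. The other 3, *Krt8*, *Krt18* and *Krt19*, had one and summed to 122 to 153 CPM in controls and 119 to 139.8 CPM in mutants.

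The members covered a 290-fold range of RNA level once CPM was divided by transcript length. *Itgb1*, the beta chain shared by most matrix receptors, had the highest mean level of the set, 268 CPM per kb over the 8 libraries. *Ilk*, the scaffold pseudokinase of its complex, came next with 159, followed by the zyxin gene *Zyx* with 113 and the alpha-actinin genes *Actn4* with 111 and *Actn1* with 106. The libraries of *Zyx*, *Actn4* and *Actn1* overlapped one another, so their order is not resolved. The lowest levels were those of *Itga7* with 1.17 and *Itga11* with 0.924 CPM per kb. Even *Itga11* was counted with at least 47 reads in each library, and 34 of the 37 members exceeded 100 reads in every library.

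**Figure D1:**
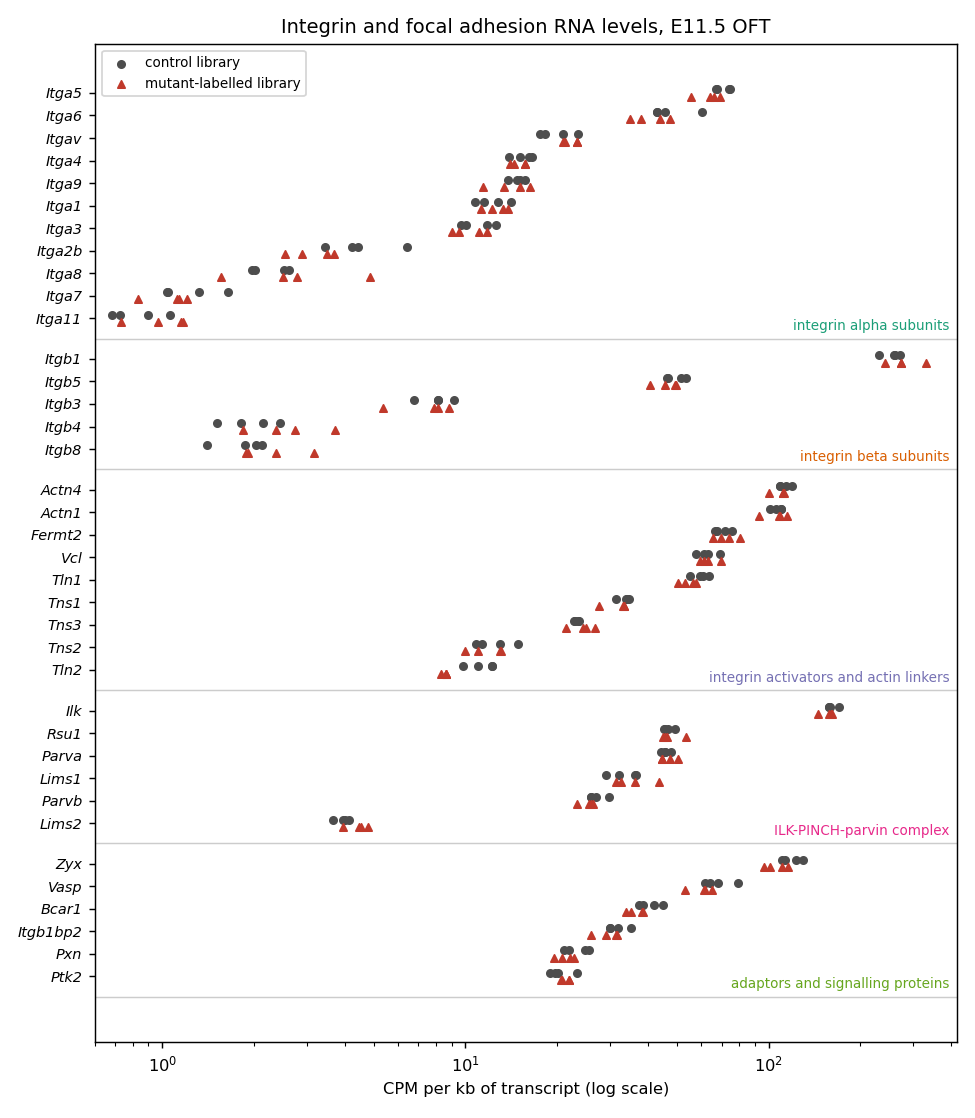
Level of each member in CPM per kb of transcript (log axis), 1 point per library, grouped by role and ordered by mean level within the role. *Itgb1* and *Ilk* sit at the right, *Itga7* and *Itga11* at the left, and control and mutant-labelled points overlap for every gene except *Tln2*.

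Among the 5 member beta chains *Itgb1* made up between 78.0% and 84.3% of the summed level per kb in every library. Its mean share was 80.6% ± 1.87 in controls and 82.5% ± 1.33 in mutants (SD, n = 4 each). Integrin chains outside the members were not counted in this or the following shares. The vitronectin receptor chain *Itgb5* followed at 47.9 CPM per kb, and *Itgb3* stood at 7.8. Among the alpha chains the fibronectin receptor *Itga5* had the highest level, 67.2 CPM per kb, and the laminin receptor *Itga6* the next, 44.5. The alpha chains that recognise the RGD motif (*Itga5*, *Itga8*, *Itgav*, *Itga2b*) held 48.6% ± 1.53 of the summed level per kb of the 11 member alpha chains in controls and 49.1% ± 0.32 in mutants. The laminin-binding group (*Itga3*, *Itga6*, *Itga7*) held 29.8% ± 2.0 and 28% ± 1.38, the *Itga4* and *Itga9* pair 15.1% ± 0.868 and 15.5% ± 1.01, and the collagen-binding pair (*Itga1*, *Itga11*) 6.52% ± 0.385 and 7.31% ± 0.576. The control and mutant ranges overlapped for each of the 4 classes.

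*Itga2b* was the integrin chain with the smallest p and pairs with *Itgb3* on platelets and their precursors. The control libraries gave 11.9, 22.1, 14.6 and 15.2 CPM and the mutant libraries 12, 9.97, 12.6 and 8.72 CPM. The groups overlapped, because control replicate 1 lay below mutant replicates 1 and 3, and the highest value was that of the shallowest library, control replicate 2. The log2 fold change was -0.51 ± 0.17 (SE, limma, unadjusted p = 0.0115, adjusted p = 0.315), and the exact two-sided permutation test gave p = 0.0857, where 70 relabellings allow no less than 0.0286. Without control replicate 2 the log2 fold change was -0.35, smaller in size than that of *Itgb4* in the same fit, 0.50. Its partner *Itgb3* read 52.9, 47.1, 39.3 and 47.0 CPM in controls and 47.0, 30.9, 51.0 and 45.6 CPM in mutants, for a log2 fold change of -0.11 and a 95% interval of -0.42 to 0.20, and 0.05 without mutant replicate 2.

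Platelet markers were scarce and, like *Itga2b*, had lower means in the mutant group. Of 10 listed megakaryocyte and platelet genes, 7 had a row, and *Gp1bb*, *Gp6* and *Selp* had none. All 7 had a lower mutant mean, with 5 at an unadjusted limma p under 0.05, where 6.62% of all genes were lower. At an adjusted p under 0.05 there were 0, and the median log2 fold change was -0.55. The 7 genes summed to 18.0 to 33.9 CPM in controls and 10.3 to 17.7 CPM in mutants. Control replicate 2 held the highest sum, as it held the highest *Itga2b*. The 8 erythroid markers all had higher mutant means, with 0 at an unadjusted p under 0.05, and their sums overlapped widely (1782 to 3616 CPM against 1497 to 5475 CPM). In pooled tissue fewer cells of a type and less RNA per cell cannot be told apart, and the part of platelet-lineage cells in the *Itga2b* difference was not tested.

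**Figure D2:**
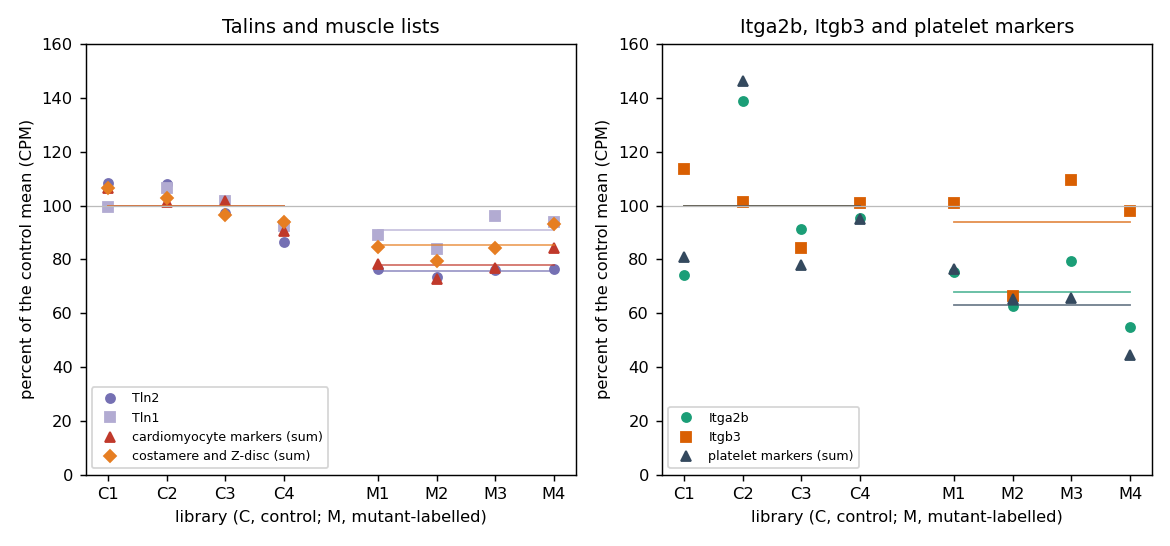
Values as a percent of the control mean in each library (C1 to C4 controls, M1 to M4 mutant-labelled), for the talins beside the summed cardiomyocyte and costamere lists (left) and for *Itga2b* and *Itgb3* beside the summed platelet markers (right), with horizontal lines at group means. *Tln2* and the cardiomyocyte sum have mutant means at 75.5% and 77.9% of control, and *Itga2b* and the platelet sum at 68.0% and 63.1%.

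The other alpha chains gave smaller or less steady differences. *Itga5* read 324, 326, 297 and 295 CPM in controls and 281, 242, 289 and 303 CPM in mutants, a log2 fold change of -0.16 (95% interval -0.33 to 0.01, limma adjusted p = 0.437). *Itga6* read 261, 197, 185 and 184 CPM against 188, 151, 163 and 205 CPM, a log2 fold change of -0.22 (-0.48 to 0.04). In both genes mutant replicate 2 had the lowest value, and without it the log2 fold changes were -0.09 for *Itga5* and -0.15 for *Itga6*. Without control replicate 1, the highest library, *Itga6* gave -0.10. *Itga8*, a receptor for nephronectin, had a log2 fold change of 0.24 that rested on mutant replicate 2 (28.1 CPM, against 9.10 to 16.2 CPM in the other 7 libraries) and was -0.03 without it. The remaining 7 chains, *Itga1*, *Itga3*, *Itga4*, *Itga7*, *Itga9*, *Itga11* and *Itgav*, lay between -0.20 and 0.23 with intervals that all included 0.

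*Itgb1* read 1038, 883, 993 and 997 CPM in controls and 924, 1265, 1039.9 and 1041 CPM in mutants. Mutant replicate 1 lay within the control range, mutant replicates 3 and 4 just above it and mutant replicate 2 well above it. The log2 fold change was 0.12 (-0.09 to 0.33), and 0.04 without mutant replicate 2. *Itgb5* read 152, 175, 169 and 153 CPM against 134, 162, 163 and 150.0 CPM, with a log2 fold change of -0.10. *Itgb4*, which pairs with *Itga6* in epithelial hemidesmosomes, had the highest fold change of all members, 0.39 (-0.03 to 0.82, limma adjusted p = 0.439), from 9.40, 15.2, 13.4 and 11.3 CPM in controls and 11.4, 23.1, 17.1 and 14.7 CPM in mutants. Without mutant replicate 2 its log2 fold change was 0.22. *Itgb8*, whose product with the alphav chain releases active TGF-beta, gave 0.30 (-0.07 to 0.67), and 0.18 without control replicate 2 or 0.15 without mutant replicate 2. The summed level per kb of the member alpha chains divided by that of the member beta chains was 0.635 ± 0.0443 in controls and 0.559 ± 0.0799 in mutants (SD, n = 4 each), with overlapping libraries.

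**Figure D3:**
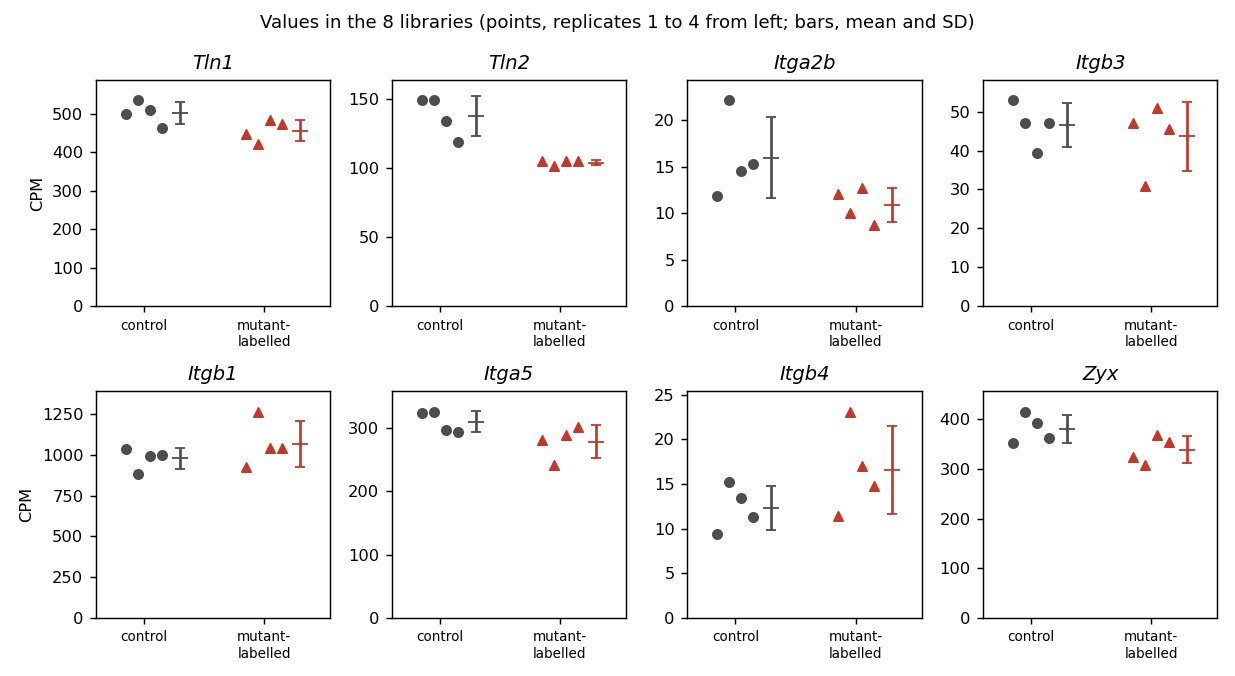
CPM in each of the 8 libraries for 8 members (points, replicates 1 to 4 from left) with group mean and SD (bars), on axes that start at 0. In *Tln2* alone of these genes the control and mutant-labelled points do not overlap.

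*Tln2* was the member with the smallest p. Talin-2 is the talin of striated muscle and of costameres, whereas talin-1 occurs in most cells. *Tln2* (ENSMUSG00000052698) lies on the minus strand at chr9:67217087-67559703 (GRCm38). The controls read 149, 149, 134 and 119 CPM and the mutants 105, 101, 105 and 105 CPM. The lowest control, replicate 4, was above each mutant library, and the mutants were close together (104 ± 1.86 CPM, against 137 ± 14.4 CPM in controls, SD, n = 4 each). The log2 fold change was -0.40 ± 0.08 (SE), with a 95% interval of -0.56 to -0.23, an unadjusted limma p of 0.000235 and an adjusted p of 0.149. The exact permutation p was 0.0286, the smallest that 4 against 4 libraries can give. The difference ranged from -0.47 without control replicate 4 to -0.36 without control replicate 1.

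*Tln1* read 499, 535, 511 and 464 CPM in controls and 446, 421, 483 and 472 CPM in mutants. These groups overlapped, and the log2 fold change was -0.14 (-0.29 to 0.01). The ratio of *Tln2* to *Tln1* CPM was 0.298, 0.278, 0.262 and 0.256 in controls and 0.235, 0.240, 0.217 and 0.222 in mutants, so the ratios did not overlap either. Per kb, *Tln1* was the main talin of the tissue with 57.1 CPM per kb over the 8 libraries, against 9.95 for *Tln2*.

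RNA of cardiomyocyte markers was lower in the same libraries as *Tln2*. All 16 listed cardiomyocyte markers had a lower mutant mean, 15 of them at an unadjusted limma p under 0.05 and 12 without overlap between groups, although 0 passed after adjustment. Their summed level was 30495 to 35806 CPM in controls and 24432 to 28402 CPM in mutants, and their median log2 fold change was -0.34, near the -0.40 of *Tln2*. *Tnnt2*, encoding cardiac troponin T, went from 1862 ± 124 to 1457 ± 95 CPM (SD, n = 4 each). Of 24 listed costamere and Z-disc genes 22 had a row. At an unadjusted limma p under 0.05, 11 were lower and 0 higher, against 6.62% and 5.45% of all genes. After adjustment 0 passed, and the median was -0.15. *Nrap*, which anchors terminal actin filaments, had a log2 fold change of -0.48 and *Csrp3*, encoding the muscle LIM protein, of -0.27. The part of cardiomyocyte content in the *Tln2* difference was not tested. The striated muscle member *Itgb1bp2*, encoding melusin, read 46.2, 39.5, 39.5 and 41.8 CPM in controls and 41.2, 34.2, 38.3 and 41.4 CPM in mutants, a log2 fold change of -0.11 (-0.29 to 0.08).

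The remaining actin linkers differed little in mean level between genotypes. The alpha-actinin gene *Actn4* read 443, 462, 423 and 425 CPM in controls and 432, 389, 437 and 433 CPM in mutants, a log2 fold change of -0.05 (-0.19 to 0.09). *Actn1* read 409, 411, 376 and 394 CPM against 405, 347, 407 and 429.5 CPM, a log2 fold change of -0.01 (-0.17 to 0.16). The kindlin-2 gene *Fermt2* gave 0.04 (-0.13 to 0.20) and the vinculin gene *Vcl* 0.01 (-0.15 to 0.18). The tensins, which bind the beta tail and actin at fibrillar adhesions, gave -0.08 for *Tns1*, -0.09 for *Tns2* and 0.07 for *Tns3*. *Tns1* read 339, 340.2, 347 and 313 CPM in controls and 275, 333, 332 and 329.8 CPM in mutants, where mutant replicate 1 was low and the other 3 mutant libraries lay within the control range. *Tns3* read 170.3, 172, 177 and 176 CPM against 182, 161, 200.0 and 187 CPM. *Tns2* read 51.5, 61.9, 71.0 and 54.1 CPM against 52.2, 47.4, 62.1 and 62.2 CPM, and each tensin overlapped between the groups.

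In the vinculin and kindlin-2 genes the stretch upstream of the transcription start holds a match to the CArG box, the site bound by serum response factor (SRF), and 150 bases of each, from 250 to 101 bases before the start, are shown for that reason. The match, which begins 227 bases before the start of *Vcl* and 204 bases before that of *Fermt2*, is in capitals. Each is written 5′ to 3′ on the strand of its gene, from the RefSeq table of GRCm38.p6, at chr14:20929148-20929297 (plus strand) for *Vcl* and chr14:45530166-45530315 (minus strand) for *Fermt2*.
Vcl: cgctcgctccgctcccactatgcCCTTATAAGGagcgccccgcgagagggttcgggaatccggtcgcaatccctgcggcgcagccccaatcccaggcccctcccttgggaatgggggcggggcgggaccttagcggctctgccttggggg
Fermt2: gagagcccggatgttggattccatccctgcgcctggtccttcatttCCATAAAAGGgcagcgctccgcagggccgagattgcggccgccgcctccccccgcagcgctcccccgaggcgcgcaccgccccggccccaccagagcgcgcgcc

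The table held a promoter, 250 bases before to 50 after the start, for 27 of the 37 members. A CArG match on either strand was present in 3 of these 27 (11.1%), *Vcl*, *Fermt2* and *Rsu1*, against 1.61% of 10773 expressed genes and 1.63% of 32851 promoters in all. The log2 fold changes of these 3 genes were 0.01, 0.04 and 0.02, with intervals that included 0. A GATA hexamer (AGATAA, or the same letters with T first, G last or both, on either strand) was found in 2 of the 27 members (7.41%), *Lims1* and *Vasp*, against 21.9% of expressed genes and 29.8% of promoters in all. A match is a run of letters and was not shown to be bound.

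The ILK-PINCH-parvin complex links the beta tail to actin and is needed for firm adhesion in heart muscle. *Ilk* read 285, 306, 286 and 285 CPM in controls and 262, 291, 289 and 285 CPM in mutants, a log2 fold change of -0.04 (-0.18 to 0.09). On the opposite strand *Taf10* shares 76.7% of the exon bases of *Ilk*, and *Ap3m1* 25.5% of those of *Vcl*. Smaller overlaps, of up to 8.04% per overlapping gene, occur in other members. The strand setting used in counting is not given in the sources used here. *Rsu1*, a partner of the PINCH proteins, read 72.8, 78.6, 74.5 and 73.0 CPM against 73.1, 85.4, 71.9 and 73.9 CPM. The PINCH gene *Lims1* gave 0.10 (-0.14 to 0.33), from 157, 126, 138 and 158 CPM to 141, 189, 136 and 156 CPM. *Lims2*, its scarce paralogue, read 6.84, 7.40, 7.5 and 7.71 CPM against 8.45, 8.90, 8.32 and 7.39 CPM, a log2 fold change of 0.16 (-0.07 to 0.38). *Parva* read 213, 197, 204 and 203 CPM against 199, 198, 211 and 224 CPM, and *Parvb* 102, 113, 98.3 and 98.2 CPM against 96.8, 88.4, 100.1 and 98.5 CPM. The *Parvb* to *Parva* ratio was 0.504 ± 0.0444 in controls and 0.462 ± 0.0223 in mutants, and *Lims2* to *Lims1* gave 0.0513 ± 0.00665 and 0.0538 ± 0.00769 (SD, n = 4 each). The ranges overlapped in both pairs.

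Of the 6 adaptors and signalling proteins 5 had a lower mutant mean, with a median log2 fold change of -0.14, but 0 reached an unadjusted limma p under 0.05. *Zyx*, encoding the actin-bundle protein zyxin, read 353, 415, 393 and 362 CPM in controls and 324, 309, 368 and 354 CPM in mutants, a log2 fold change of -0.17 (unadjusted p = 0.0506, adjusted p = 0.415). *Vasp*, encoding an actin polymerase, read 151, 175, 142 and 136 CPM against 136, 117, 137 and 145 CPM, also -0.17 (-0.37 to 0.02). The p130Cas gene *Bcar1* gave -0.16 (-0.32 to 0.01), paxillin (*Pxn*) -0.13 (-0.30 to 0.05) and the focal adhesion kinase gene *Ptk2* 0.06 (-0.10 to 0.22). With the per-library trend against transcript GC content removed, *Zyx* gave -0.09, *Vasp* -0.08, *Bcar1* -0.04 and *Pxn* -0.03.

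Among the members the sign of the differences went with GC content. The members had a median transcript GC of 53.1%, against 49.9% for all genes. Of the 18 members above 53.1%, 15 were lower in the mutant, and of the 19 at or below it, 7 were. After the trend against GC was removed from each library, 11 of the 18 and 11 of the 19 were lower, and the median over the 37 was -0.01. The totals stayed at 22 lower and 15 higher. All genes were not split in this way, and the part of GC content in these differences was not tested.

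**Figure D4:**
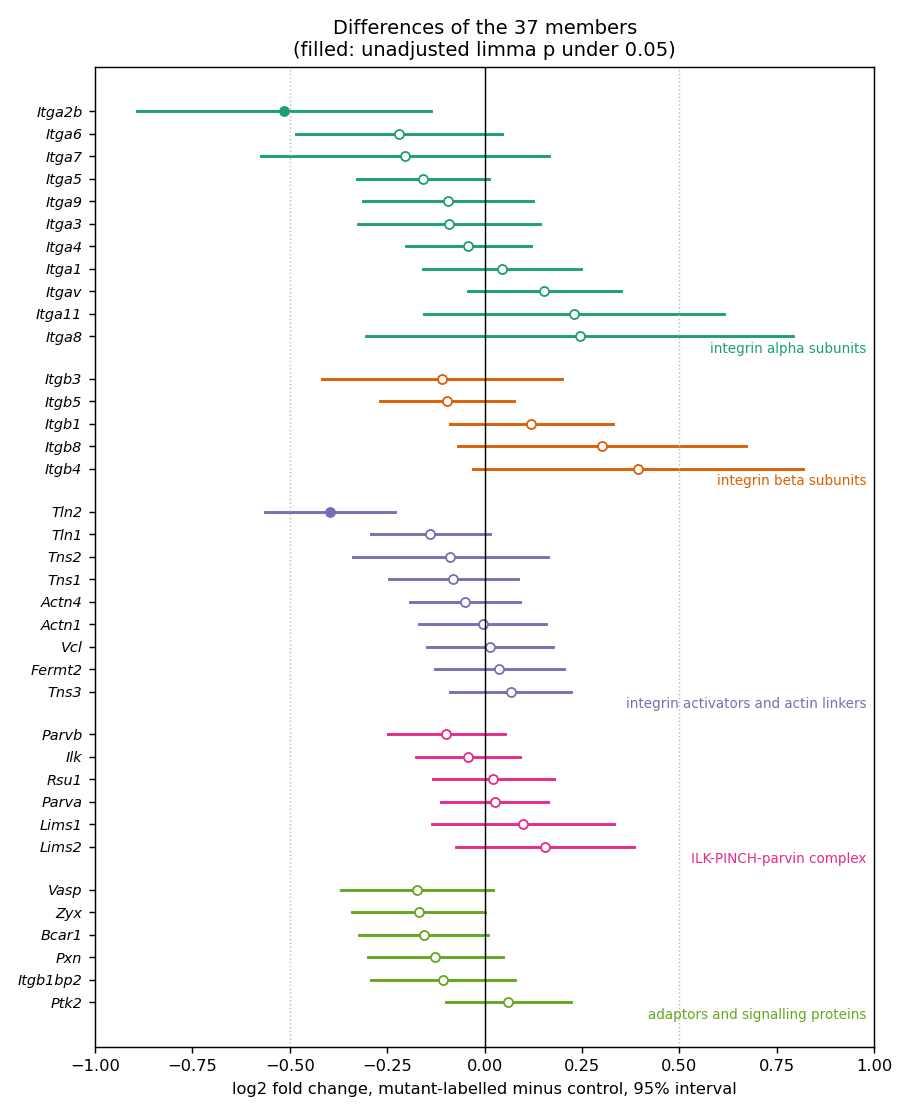
Log2 fold change (mutant-labelled minus control) of each member with its 95% interval from limma, grouped by role, with filled points for an unadjusted p under 0.05. Only *Tln2* and *Itga2b* are filled, and 33 of the 37 points lie within 0.25 of 0.

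For most members the intervals bound the size of any difference. In 30 of the 37 the 95% interval lay between -0.5 and 0.5, that is, within 1.41-fold either way, and the median half-width of the intervals was 0.17. The exceptions were *Itga2b*, *Itga7*, *Itga8*, *Itga11*, *Itgb4*, *Itgb8* and *Tln2*. At an unadjusted p under 0.05 the number of members lower in the mutant was 4 without control replicate 1, 5 without control replicate 4 and 4 without mutant replicate 4. The number higher was 1 without control replicate 1, control replicate 2, mutant replicate 2 or mutant replicate 4, and 2 without mutant replicate 1. *Tln2* and *Itga2b* were in the lower set each time. How many of all genes passed that p in these fits was not counted, so the member counts cannot be set against the whole table.

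Beyond the members, no gene of the pathway lists passed after adjustment. Of 54 further adaptors and signalling proteins of adhesions 53 had a row, with 3 lower and 1 higher at an unadjusted limma p under 0.05, where 6.62% of all genes were lower and 5.45% higher, and a median of -0.03. *Rap1b*, a small GTPase of integrin activation, gave 0.23, *Cd151*, a tetraspanin partner of laminin receptors, -0.21, and *Tgfb1i1*, the paxillin relative Hic-5, -0.22. Of 10 other integrin chains 5 had a row, and 0 reached an unadjusted p under 0.05. Of 40 listed matrix ligands 34 had a row, with 4 lower and 4 higher at an unadjusted p under 0.05, against the same 6.62% and 5.45% of all genes. After adjustment 0 of them passed, and their median was 0.02. The basement membrane collagens *Col4a1* and *Col4a2* each had a log2 fold change of -0.30 and the vascular laminin chain *Lama4* of -0.22. Fibronectin (*Fn1*), the ligand of *Itga5*, measured 2914 ± 196 CPM in controls and 2888 ± 214 CPM in mutants.

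SRF and its MRTF cofactors drive many genes of the actin cytoskeleton and of adhesions. Of 24 genes in that list 22 had a row, with 3 lower and 3 higher at an unadjusted limma p under 0.05, against 6.62% and 5.45% of all genes. After adjustment 0 of them passed, and their median was -0.03. *Srf* itself had a log2 fold change of -0.29 (108 ± 16.3 to 87.5 ± 5.81 CPM, SD, n = 4 each). *Cald1*, encoding caldesmon, gave 0.26 and *Filip1l*, encoding filamin A interacting protein 1-like, also 0.26.

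**Figure D5:**
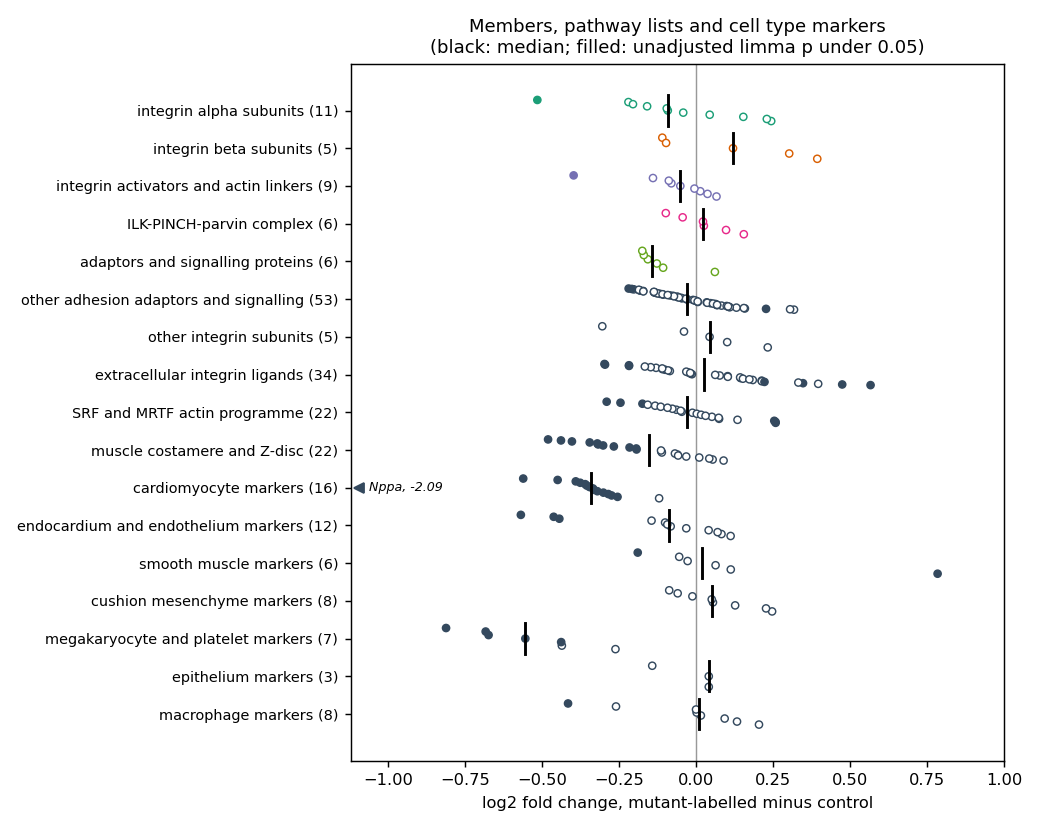
Log2 fold change of each gene (points, filled at an unadjusted limma p under 0.05) in the 5 role groups, the 5 pathway lists and 7 of the marker lists, with list medians as black bars and the number of genes in brackets. *Nppa* in the cardiomyocyte list lies beyond the axis at -2.09, and the cardiomyocyte and platelet lists have the lowest medians.

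The remaining cell type lists had no gene at an adjusted p under 0.05. Their counts at an unadjusted limma p under 0.05 stand beside 6.62% of all genes lower and 5.45% higher. The 12 endocardial and endothelial markers summed to 1010.1 to 1270.2 CPM in controls and 1036 to 1129 CPM in mutants, with 3 lower at an unadjusted limma p under 0.05 and a median log2 fold change of -0.09. The 8 cushion mesenchyme markers had a median of 0.05, with 0 genes at an unadjusted limma p under 0.05. The 6 smooth muscle markers had a median of 0.02 and ranged from -0.19 to 0.78, with 1 lower and 1 higher at that p. Of 7 epithelial markers 3 had a row, with sums of 122 to 153 and 119 to 139.8 CPM beside the *Itgb4* values, and a median of 0.04. The 8 macrophage markers had a median of 0.01, with 1 gene lower. Epicardial markers had a median of 0.10 (6 genes, 0 at an unadjusted p under 0.05) and neural crest, glia and neuron markers of -0.08 (5 of 8 with a row, 1 higher). Second heart field markers had a median of 0.58 over the 3 of 5 genes with a row, with 2 higher at an unadjusted p under 0.05.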

How the data were processed

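Poly-A RNA from E11.5 OFT was made into libraries with a directional kit and sequenced as 60 bp single-end reads. Per the study's methods the authors trimmed adapters with cutadapt, quantified genes with RSEM on GRCm38 and used edgeR. The deposited table holds CPM values, normalized by the authors with TMM, of 14608 genes in 8 libraries, each at 1 CPM or more in at least 4 of them. The steps between values were whole multiples of 1 read (tolerance 0.001 reads), which gave the depth. The labels name pools of 3 individuals, whereas the methods describe 3 pools of 4 pairs of OFT per genotype.

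CPM were compared on the log2(CPM + 0.5) scale with limma 3.58.1 (R 4.3.3, trended prior), on all genes and all 8 libraries, with 2-sided tests, a Benjamini-Hochberg threshold of 0.05 and 95% intervals. Fold changes on this scale understate the change of low genes. The method was tested on simulated data. Those data gave every gene the same spread beyond sampling noise and held no outlying library, so the test does not cover an outlying library. Levels between genes use CPM per kb of the longest basic protein-coding transcript of GENCODE M21. Count tests were not used. Alternatives were other pseudocounts, a filter of 5 CPM, other scalings, a GC correction, a replicate block, library weights and leaving out each library.

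The members and lists were chosen with earlier results of these data known. Members were given in full where an unadjusted p was under 0.05, where groups did not overlap, as the 2 most abundant per kb of each role, or as paralogues of these, and up to 3 genes per pathway list with the smallest p were named. Of the genes this rule selects, 1 is not reported here. The members named beyond this rule, and *Tnnt2*, *Nppa* and *Fn1*, were picked after their values were seen. Libraries of a group differed from each other by more than sampling noise (chi-square per gene 6.67 to 33.7), so none was a repeat deposit.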

Additional observations from a re-analysis of the deposited data

Results flagged for a closer look

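In 74 groups of 4 libraries (37 members, 2 genotypes), 6 held a library far from the other 3 by Dixon's test at the 95% level, where chance alone gives about 1 in 20. Control replicate 1 read 261 CPM of *Itga6* against 184 to 197 CPM in the other controls, and control replicate 2 read 306 CPM of *Ilk* against 285 to 286 CPM. Mutant replicate 1 read 275 CPM of *Tns1* against 329.8 to 333 CPM in the other mutants. Mutant replicate 2 accounted for the other 3: 389 CPM of *Actn4* against 432 to 437 CPM, 85.4 CPM of *Rsu1* against 71.9 to 73.9 CPM, and 101 CPM of *Tln2* against 105 CPM. For *Tln2* the gap was small in size, and without that library the log2 fold change was -0.38.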

How the results depend on the processing

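Under the 16 alternatives 0 members passed an adjusted limma p of 0.05, and the median log2 fold change of the members lay between -0.07 and -0.01. For *Tln2* the adjusted p ranged from 0.0841 to 0.483, and for *Itga2b* the unadjusted p was under 0.05 in each. The number of members higher at an unadjusted p under 0.05, 0 as reported, was 1 with the replicate block (*Itgb4*), 2 with the GC trend removed (*Itgb4*, *Lims2*) and 2 with library weights (*Itga11*, *Itgb4*), a fit chosen after seeing the data that also called 2 genes of the whole table, neither of them a member. The number lower, 2 as reported, was 3 with the GC trend removed, where *Itga4* joined (log2 fold change -0.15, against -0.04 as reported), and 3 with median of ratios scaling, where *Zyx* joined. Leaving out 1 library gave 0 to 2 higher and 2 to 5 lower. The share of all genes at that p was not counted in the alternatives, and the cause of these shifts was not tested. Of 590 pairs of member and alternative, 30 changed sign, in 14 members whose log2 fold change was at most 0.24 in size. The replicate numbers did not pair the libraries: same-numbered deviations correlated between -0.19 and 0.03, and 0 of the 8 libraries correlated best with its own number. Fitting the number as a block left 0 genes called. Count tests, planned on reads recovered from the CPM, were not run because the values did not pass, in every library, a check that takes the lowest value above 0 as 1 read. With 4 libraries per group the exact permutation p cannot go below 0.0286, and *Itga7*, *Itga11* and *Lims2* fell under 100 reads in at least 1 library.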
